A study of Bos taurus with 24 samples.

Results

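The transcripts described here encode the enzymes that carry glucose carbon to pyruvate, exchange pyruvate with lactate, bring pyruvate into the mitochondrion and oxidise it in the citric acid cycle, together with the kinases that switch off pyruvate dehydrogenase. They were chosen by gene symbol, and 48 of the 11306 genes in the deposited table matched. Another hexokinase pair (HK2, HK3), PGAM2, ENO2, LDHD, PDHA2 and PCK1 were not analysed here. Of the 48 genes, 46 were over 0.1 FPKM (fragments counted for a transcript, divided by its length and by the fragments of the library) in at least 1 library and were tested, and the muscle and platelet phosphofructokinases PFKM and PFKP were not.

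The oocytes came from non-lactating, non-pregnant Angus-based crossbred beef cows that were aspirated in May (spring) and in July (summer). At each date, oocytes were taken either at the germinal vesicle (GV) stage, as recovered from the follicle and arrested in prophase of meiosis, or at metaphase II (MII), after maturation in culture with FSH and serum. Each of the 4 groups held 6 libraries, every one from a pool of 4 oocytes of 1 animal, freed of cumulus cells. The study asked whether season alters the oocyte transcriptome. MII oocytes had matured in vitro, so that stage and culture cannot be told apart in these groups, and it was not stated whether libraries with the same replicate number came from the same cow. The same set of cows was aspirated at each session, and a random part of the oocytes of each cow was matured, so the groups may share animals.

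Glycolysis splits a hexose in the cytosol and yields pyruvate, which lactate dehydrogenase can interconvert with lactate. The mitochondrial pyruvate carrier and the pyruvate dehydrogenase complex commit pyruvate to acetyl-CoA, and the citric acid cycle condenses it with oxaloacetate and regenerates oxaloacetate through a series of dehydrogenases. The bovine oocyte is known for using pyruvate more readily than glucose, while the surrounding cumulus cells are strongly glycolytic and supply it with pyruvate. A fully grown oocyte is largely silent in transcription during maturation, so its transcript pool is mostly inherited from growth.

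All libraries were scaled to the same total (86768.1 to 86768.2 FPKM), and the lowest value of the table was 0.01, so no total count is available. Relative depth was read from the steps between low values: it was 0.0565 of that of May GV replicate 1 in May GV replicate 6, 0.149 in May MII replicate 6 and 0.393 in July GV replicate 2, and 0.542 to 6.51 in the other libraries. Those 3 libraries are called shallow below, and counts are given with and without them. Of 17 oocyte markers, 11 were listed and 10 had a mean over 1 FPKM, and their summed level was 820 to 1340 FPKM in May GV, 1144 to 2213 in July GV, 1425 to 1697 in May MII and 1424 to 1824 in July MII libraries. Of 21 cumulus markers, 19 were listed and 5 had a mean over 1 FPKM. Another 4 stayed under 0.1 FPKM in all libraries, and the FSH receptor gene FSHR was at the lowest value in 21 of 24. HAS2 had means of 0.297 and 0.486 FPKM in May and July GV and 1.82 and 2.15 FPKM in MII libraries. GREM1 went the other way, from 0.546 and 0.602 FPKM to 0.156 and 0.190 FPKM. The summed level of the cumulus markers was 22 to 114 FPKM in May GV, 22.4 to 75.2 in July GV, 18.7 to 52.9 in May MII and 13.6 to 55.1 in July MII libraries. STAR, a gene of steroid synthesis, made up more than the rest of these markers together in 23 of 24 libraries (9.36 to 64.3 FPKM), and the sum without it was 2.65 to 92.3 FPKM in May GV, 3.25 to 10.9 in July GV, 3.65 to 12.9 in May MII and 3.76 to 17.6 in July MII libraries. The highest sum was in May GV replicate 3, where AMH (13.4 FPKM), INHA (37.2 FPKM) and FST (20.3 FPKM) stood far above the other libraries, and the part of these cells in any result was not tested. Of 8 blood and stroma markers, 7 were listed and 0 had a mean over 1 FPKM.

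From GV to MII, transcripts of lower glycolysis, of the heart-type lactate dehydrogenase and of several citric acid cycle steps fell in both months, and with all libraries fumarase was the enzyme that rose in both. Without the shallow libraries IDH3A and PDK1 rose in both months too. The summed level of the 48 genes was 227 ± 65.1 FPKM (mean ± SD, n = 6, as for all such values) in May GV and 94.2 ± 23.1 FPKM in May MII libraries, and 191 ± 47.4 FPKM in July GV and 83.3 ± 17.7 FPKM in July MII libraries. Without GAPDH the sum was 121 ± 45.6 and 67.9 ± 27.2 FPKM in May GV and MII, and 116 ± 26.2 and 66.2 ± 16.1 FPKM in July GV and MII libraries. Every value is a share of a fixed total, so the amount of RNA per oocyte was not measured, and in a pool, fewer oocytes that hold a transcript cannot be told apart from less of it per oocyte. The RNA was captured by its poly(A) tail, so a change of tail length cannot be told apart from a change of amount. With an adjusted p under 0.05 (limma on log2(FPKM + 1), Benjamini-Hochberg over the 9526 genes tested), 15 of 46 members passed in May, 1 higher and 14 lower in MII, where 24.2% of all genes tested passed, 9.45% higher and 14.7% lower. In July 20 of 46 passed, 2 higher and 18 lower, against 30.7% of all genes, 7.67% higher and 23.1% lower. Quantile normalization gave 6 higher and 15 lower in May, against 20.4% and 13.9% of all genes, and 7 higher and 16 lower in July, against 23.3% and 18.3%. At an unadjusted p under 0.05, 26 of 46 passed in May (38.8% of all genes) and 28 of 46 in July (42.1%). By the rule of the study's methods, an unadjusted p under 0.05 with over 2-fold, 2 were higher (3.57% of all genes) and 7 lower (8.25%) in May, and 0 higher (2.2%) and 8 lower (9.26%) in July, in all 9 of 46 (11.8%) and 8 of 46 (11.5%). The fold was taken here by limma on the log2(FPKM + 1) scale, which understates changes near or under 1 FPKM. The study applied its rule with the Partek program. The median log2 fold change of the members was -0.19 in May and -0.20 in July, beside -0.03 and -0.02 over all genes tested.

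The direction of the fitted change was the same in May and July for 43 of 46 members, 31 of them lower and 12 higher in MII, and for 85.5% of all genes tested, 49.6% lower and 35.9% higher. Both months called 14 members, 13 lower and 1 higher, beside 13.2% of all genes lower and 4.78% higher in both. Among them MDH2, SUCLG1, LDHB, HK1, ENO1, IDH3G, MDH1, GAPDH, ALDOA, TPI1, LDHA and OGDH fell and FH rose. PCK2 passed in May only, and IDH3B, ENO3, ALDOC, PKM, PC and IDH3A in July only. Of the members named here, SUCLG1, OGDH and PC were over 0.1 FPKM in GV libraries only, and entered the test through that stage. The same held for PFKL and IDH2, which did not pass in either month with all libraries. The maturation comparisons of the 2 months share no library, but the same set of cows was aspirated in both months, so they may share animals. Values in MII lay below all GV values for 9 of 46 members in May (8.98% of all genes tested) and 15 of 46 in July (14.7%), and above all GV values for 1 in May (4.65%) and 0 in July (3.07%).

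Leaving out the 3 shallow libraries raised the May count to 30 of 46, 8 higher and 22 lower, where 41.9% of all genes passed (19.3% higher, 22.6% lower). The July count was then 22 of 46, 4 higher and 18 lower, against 39.3% of all genes (13.1% higher, 26.2% lower). Without May GV replicate 6 alone, 26 members passed in May, beside 3609 of all 9526 genes. The 14 members called in both months passed in both months without the shallow libraries too.

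**Figure D1:**
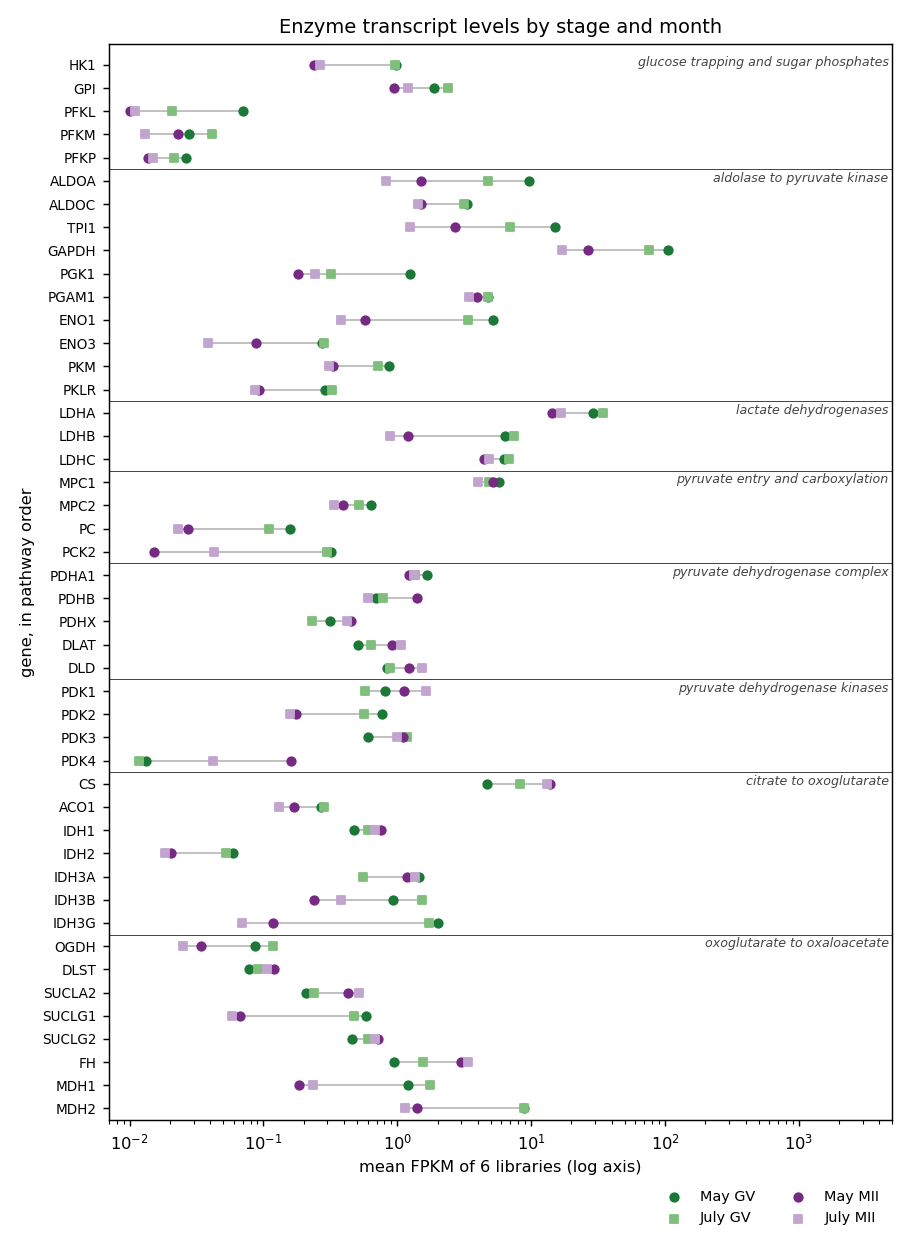
Mean level of 46 of the 48 enzyme genes in the 4 groups (x axis, mean FPKM of 6 libraries, log axis), in pathway order from top to bottom (y axis, gene), with circles for May and squares for July, green for GV and purple for MII oocytes. GAPDH falls from 106 to 26.4 FPKM in May and from 75.3 to 17.1 FPKM in July, while the purple points of FH lie to the right of the green ones.

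Entry into glycolysis was represented by hexokinase 1, phosphoglucose isomerase and weakly by the phosphofructokinases. HK1 (UMD3.1 chr28:25854741-25925055, plus strand), which phosphorylates glucose and so traps it in the cell, was between 0.674 and 1.17 FPKM (median 1.05) in May GV and between 0.171 and 0.285 FPKM (median 0.241) in May MII libraries. July gave between 0.687 and 1.27 FPKM (median 0.958) in GV and between 0.201 and 0.336 FPKM (median 0.258) in MII libraries. No MII library reached the lowest GV library in either month, and HK1 fell by 0.67 in May (SE 0.109, adjusted p = 0.00107) and by 0.62 in July (SE 0.103, adjusted p = 0.000720) on the log2(FPKM + 1) scale, by limma. On that scale the change of genes near or under 1 FPKM is understated: the mean HK1 level itself was 4.14 times as high in GV as in MII oocytes in May and 3.61 times in July.

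GPI, which converts glucose 6-phosphate to fructose 6-phosphate, was between 1.23 and 3.35 FPKM (median 1.75) in May GV and between 0.607 and 1.37 FPKM (median 0.874) in May MII libraries, and between 1.41 and 4.59 FPKM (median 1.99) and between 0.623 and 2.35 FPKM (median 0.775) in July GV and MII libraries. The groups overlapped in both months, and its log2 difference of -0.55 ± 0.19 (SE) in May (limma adjusted p = 0.0553) and -0.62 ± 0.26 (SE) in July (adjusted p = 0.0896) did not pass. Without the shallow libraries GPI passed in May, with -0.48 ± 0.15 (SE) (adjusted p = 0.0244). PFKL, PFKM and PFKP encode the liver, muscle and platelet subunits of phosphofructokinase, the committing step of glycolysis, and had group means of at most 0.0701, 0.0410 and 0.0265 FPKM. The highest single values of PFKL were 0.167 FPKM in May GV replicate 3 and 0.136 FPKM in May GV replicate 6. It was at the lowest value of the table in 11 of 12 MII libraries and in 1 of 12 GV libraries. In whole counting steps, recovered for 44 of 48 members and of unknown size in reads, PFKL gave 103 steps over the 12 GV libraries and 1 over the 12 MII libraries, PFKM 91 and 11, and PFKP 70 and 18. These sums are not scaled for depth, which was highest in July GV replicate 5 (6.51). PFKL did not pass in May (-0.08 ± 0.03 (SE), limma adjusted p = 0.0959), where all GV libraries were above all MII libraries, or in July (-0.01 ± 0.01 (SE), adjusted p = 0.289).

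From aldolase to pyruvate kinase, 4 of 11 members fell in May (ALDOA, TPI1, GAPDH, ENO1) and 7 of 11 in July (the same 4, with ALDOC, ENO3 and PKM), where 14.7% and 23.1% of all genes tested fell, and 0 rose in either month. GAPDH (UMD3.1 chr5:104237713-104241997, minus strand), which oxidises glyceraldehyde 3-phosphate and reduces NAD+, had the highest mean of the 48 transcripts in every group, although in July MII libraries its mean of 17.1 FPKM was close to that of LDHA (16.8 FPKM). By median LDHA was the higher of these 2 in July MII libraries (16.4 against 13.9 FPKM), where replicate 1 raised the GAPDH mean (42.2 FPKM, next 15.4). GAPDH was between 56.4 and 156 FPKM (median 107) in May GV and between 14.3 and 42.4 FPKM (median 21.9) in May MII libraries, without overlap, and between 27.8 and 164 FPKM (median 66.3) in July GV and between 6.24 and 42.2 FPKM (median 13.9) in July MII libraries. In July the ranges met, since July MII replicate 1 (42.2 FPKM) lay above July GV replicates 2 (27.8 FPKM) and 6 (35.5 FPKM). The log2 fold change was -2.01 ± 0.31 (SE) in May (limma adjusted p = 0.000766) and -2.06 ± 0.47 (SE) in July (adjusted p = 0.00555).

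ENO1 (UMD3.1 chr16:45401695-45416463, plus strand), the ubiquitous enolase that forms phosphoenolpyruvate, was between 1.11 and 8.08 FPKM (median 5.24) in May GV and between 0.156 and 1.54 FPKM (median 0.444) in May MII libraries. Corresponding July values were between 2.05 and 6.10 FPKM (median 3.04) and between 0.228 and 0.55 FPKM (median 0.358). The July groups did not overlap, and in May they met only because May GV replicate 1 was low (1.11 FPKM) and May MII replicate 6, a shallow library, was high (1.54 FPKM). ENO1 changed by -1.91 ± 0.33 (SE) in May (limma adjusted p = 0.00165) and -1.62 ± 0.19 (SE) in July (adjusted p = 7.82e-05). ENO3, the muscle enolase, was far lower, at 0.284 ± 0.142 FPKM in July GV and 0.0386 ± 0.0322 FPKM in July MII libraries, and fell in July (-0.30 ± 0.06 (SE), adjusted p = 0.00358). In May its difference of -0.21 ± 0.12 (SE) did not pass (adjusted p = 0.204), but it did without the shallow libraries (-0.31 ± 0.11 (SE), adjusted p = 0.0452).

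ALDOA (UMD3.1 chr25:26470486-26475203, minus strand), the main aldolase of most tissues, cleaves fructose 1,6-bisphosphate. It was between 2.24 and 25 FPKM (median 7.82) in May GV and between 0.442 and 6.03 FPKM (median 0.629) in May MII libraries, and between 2.84 and 8.54 FPKM (median 3.92) in July GV and between 0.212 and 2.31 FPKM (median 0.405) in July MII libraries. May MII replicate 6 stood alone among the May MII libraries at 6.03 FPKM, and the July groups did not overlap. The log2 fold change was -2.09 ± 0.49 (SE) in May (limma adjusted p = 0.00904) and -1.68 ± 0.30 (SE) in July (adjusted p = 0.00113). ALDOC, the aldolase typical of brain, was 3.33 ± 2.70 FPKM in May GV and 1.49 ± 0.815 FPKM in May MII libraries, and 3.14 ± 0.684 and 1.44 ± 0.536 FPKM in July GV and MII libraries. It fell in July (-0.78 ± 0.18 (SE), adjusted p = 0.00581), where quantile normalization (adjusted p = 0.0611) and a fit of all 4 groups (0.0922) ended the call. In May the difference was -0.59 ± 0.44 (SE) (adjusted p = 0.328), with May GV replicate 6 at the lowest value of the table.

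TPI1 (UMD3.1 chr5:103942402-103945760, minus strand), which interconverts the triose phosphates, was between 3.31 and 43.2 FPKM (median 12.1) in May GV and between 0.332 and 11.7 FPKM (median 0.950) in May MII libraries. In July it was between 2.36 and 11.7 FPKM (median 6.15) at GV and between 0.308 and 3.03 FPKM (median 0.863) at MII. Its highest value in each May group came from the shallow replicate 6 (43.2 FPKM at GV and 11.7 FPKM at MII), and the groups overlapped in both months. The log2 fold change was -2.28 ± 0.60 (SE) in May (limma adjusted p = 0.0156) and -1.76 ± 0.37 (SE) in July (adjusted p = 0.00345), and without the shallow libraries it was -2.37 ± 0.35 (SE) in May and -1.61 ± 0.37 (SE) in July.

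The remaining steps of lower glycolysis showed smaller or more variable differences. PKM, the pyruvate kinase of most tissues outside liver, was 0.723 ± 0.215 FPKM in July GV and 0.306 ± 0.0610 FPKM in July MII libraries and fell there (-0.39 ± 0.10 (SE), limma adjusted p = 0.0112), and its May difference of -0.44 ± 0.18 (SE) did not pass (adjusted p = 0.0971). PGAM1, a phosphoglycerate mutase, had group means from 3.44 to 4.77 FPKM and 95% intervals of the log2 difference of -0.84 to 0.62 in May and -1.10 to 0.66 in July. PGK1, which makes the first ATP of the pathway, was 0.184 to 0.230 FPKM in May GV replicates 1, 2, 4 and 5, but 3.69 FPKM in replicate 3, the library with the highest cumulus marker sum, and 3.02 FPKM in the shallow replicate 6. Its maturation difference did not pass in May (-0.65 ± 0.36 (SE), adjusted p = 0.194) or July (-0.10 ± 0.12 (SE), adjusted p = 0.539). PKLR, the liver and red cell pyruvate kinase, had group means of 0.0869 to 0.327 FPKM. GAPDH, LDHA, PGAM1, ENO1, TPI1, ALDOA and PGK1 belong to families known for processed pseudogenes in mammals, and how the authors' counting treated reads shared with them was not given, so that their levels are uncertain to that extent.

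**Figure D2:**
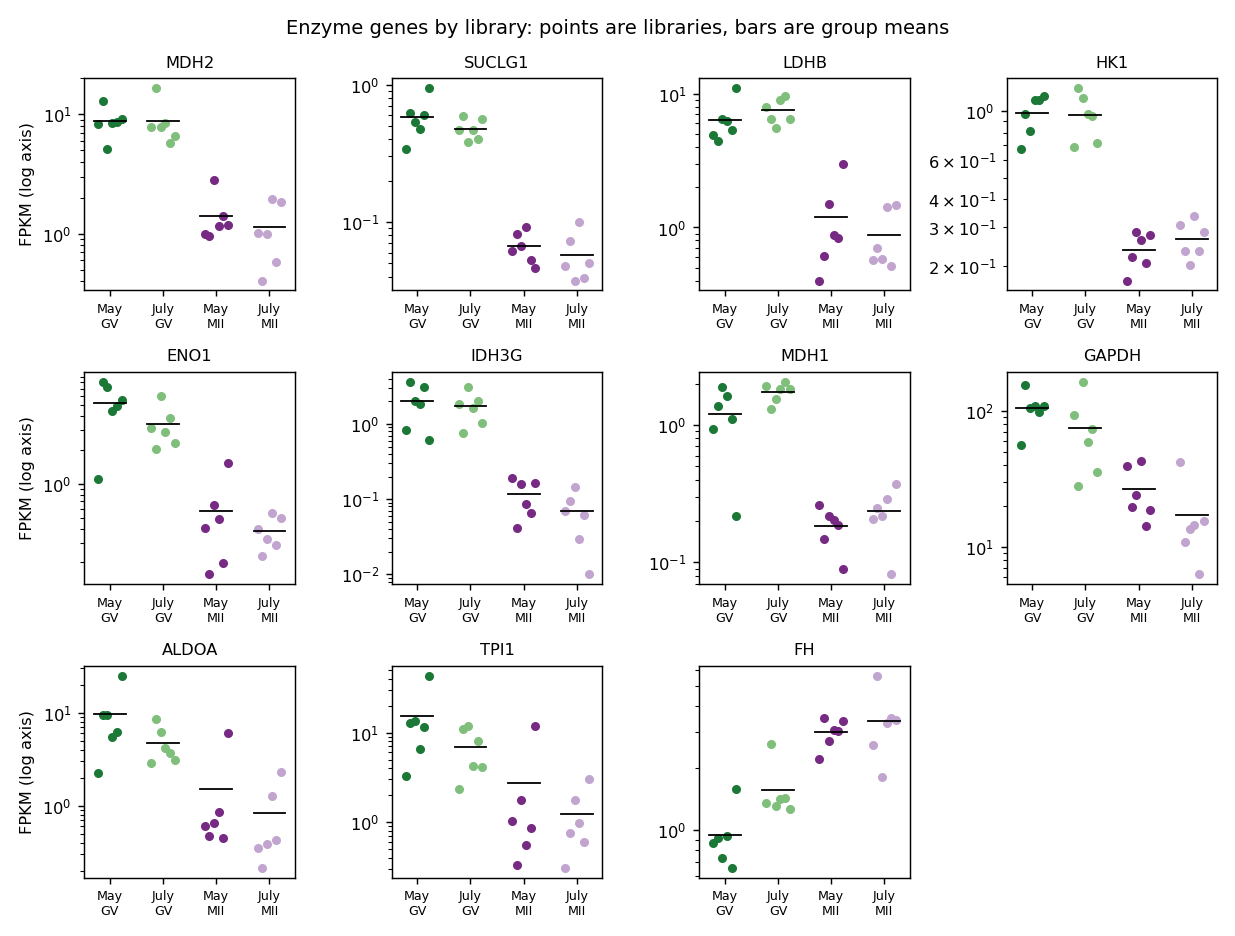
Values of 11 enzyme genes that passed in both maturation comparisons, 1 panel per gene, with 1 point per library (y axis, FPKM, log axis), 6 libraries in each of the 4 groups on the x axis, and a bar at the group mean. For MDH2, SUCLG1, LDHB and HK1 all MII points lie below all GV points of the same month, and for FH the MII points lie above the GV points in May and overlap them in July.

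Of the lactate dehydrogenase subunits, LDHB and LDHA fell in both months and LDHC did not pass. LDHB (UMD3.1 chr5:88962610-88981220, plus strand), the heart-type subunit, was between 4.42 and 11 FPKM (median 5.81) in May GV and between 0.402 and 2.99 FPKM (median 0.859) in May MII libraries. The July ranges were between 5.54 and 9.57 FPKM (median 7.23) at GV and between 0.517 and 1.48 FPKM (median 0.644) at MII. The stages did not overlap in either month, and LDHB changed by -1.79 ± 0.27 (SE) in May (limma adjusted p = 0.000762) and -2.19 ± 0.19 (SE) in July (adjusted p = 9.86e-06). LDHA (UMD3.1 chr29:26543857-26555740, minus strand), the muscle-type subunit, remained the most abundant of the family, at between 17.0 and 47.4 FPKM (median 27.5) in May GV, between 9.34 and 22.9 FPKM (median 13.1) in May MII, between 25.4 and 47.7 FPKM (median 33.5) in July GV and between 12.6 and 24.3 FPKM (median 16.4) in July MII libraries. July groups were separate for LDHA, with the highest MII library (24.3 FPKM) just under the lowest GV library (25.4 FPKM), and May groups overlapped. Its log2 fold change was -0.95 ± 0.27 (SE) in May (adjusted p = 0.0240) and -0.99 ± 0.20 (SE) in July (adjusted p = 0.00282).

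The May call of LDHA was lost when any 1 of 5 libraries (GV replicates 4 and 5, MII replicates 1, 2 and 4) was left out (limma adjusted p up to 0.0542), and quantile normalization ended it in both months (adjusted p = 0.0799 in May and 0.0686 in July). LDHC, the germ cell subunit known best from the testis and a neighbour of LDHA on chromosome 29, was 6.22 ± 3.33 FPKM in May GV and 4.41 ± 0.919 FPKM in May MII libraries, and 6.79 ± 3.31 and 4.88 ± 2.07 FPKM in July. It did not pass in either month, with 95% intervals of the log2 difference of -0.89 to 0.23 in May and -1.01 to 0.21 in July. Of the summed level of the 3 subunits, LDHB made up 15.7 ± 4.32% in May GV, 5.91 ± 4.38% in May MII, 15.5 ± 3.05% in July GV and 4.28 ± 2.83% in July MII libraries. The LDHB share overlapped between stages in May, where the shallow MII replicate 6 reached 14.4%, and did not overlap in July.

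Pyruvate entry into the mitochondrion was dominated by MPC1, a subunit of the mitochondrial pyruvate carrier, which was between 4.36 and 7.33 FPKM (median 5.42) in May GV, between 3.35 and 7.03 FPKM (median 5.52) in May MII, between 3.78 and 5.70 FPKM (median 4.74) in July GV and between 3.08 and 5.93 FPKM (median 3.69) in July MII libraries. All 4 groups overlapped, and the log2 differences of -0.14 ± 0.20 (SE) in May (limma adjusted p = 0.623) and -0.23 ± 0.16 (SE) in July (adjusted p = 0.283) did not pass. Its partner subunit MPC2 was about an order of magnitude lower, at 0.634 ± 0.146 and 0.391 ± 0.101 FPKM in May GV and MII libraries and 0.521 ± 0.176 and 0.334 ± 0.0604 FPKM in July. It did not pass with all libraries, and passed in May without the shallow ones (-0.26 ± 0.09 (SE), limma adjusted p = 0.0411). Both genes that lead from pyruvate or oxaloacetate toward glucose were low. PC, pyruvate carboxylase, was 0.157 ± 0.129 FPKM in May GV and 0.0274 ± 0.00759 FPKM in May MII libraries, with no overlap, and 0.110 ± 0.0739 and 0.0228 ± 0.0145 FPKM in July, also with none. It fell in July (-0.12 ± 0.04 (SE), adjusted p = 0.0274) and missed the threshold in May (-0.16 ± 0.06 (SE), adjusted p = 0.0596), which it passed without the shallow libraries (-0.18 ± 0.07 (SE), adjusted p = 0.0454). Leaving out any 1 of 4 libraries (July GV replicate 1, MII replicates 2, 4 and 5) ended the July call (adjusted p up to 0.0569), as did quantile normalization (0.0814) and a fit of all 4 groups (0.0923). PC overlaps the listed gene LRFN4 on the opposite strand, and use of strand in counting was not given.

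PCK2, the mitochondrial phosphoenolpyruvate carboxykinase, was 0.322 ± 0.273 FPKM in May GV and 0.0151 ± 0.00797 FPKM in May MII libraries, 4 of which were at the lowest value of the table, and 0.296 ± 0.286 and 0.0429 ± 0.0463 FPKM in July. It fell in May (-0.36 ± 0.11 (SE), limma adjusted p = 0.0316), a call that was lost without any 1 of 8 libraries (GV replicates 1 and 4 and each MII replicate, adjusted p up to 0.0639), and its July difference of -0.29 ± 0.12 (SE) did not pass (adjusted p = 0.0756). Counting steps for PCK2, not scaled for depth, numbered 270 over the GV libraries and 14 over the MII libraries.

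Of the 5 subunit genes of the pyruvate dehydrogenase complex, 0 passed the adjusted limma test in May and 0 in July, beside 24.2% and 30.7% of all genes tested. At an unadjusted limma p under 0.05 there were 1 (DLAT) in May and 0 in July, beside 38.8% and 42.1% of all genes. PDHA1, the E1 alpha subunit that the kinases phosphorylate, was between 0.287 and 6.27 FPKM (median 0.716) in May GV, between 0.206 and 3.62 FPKM (median 0.635) in May MII, between 0.30 and 5.03 FPKM (median 0.555) in July GV and between 0.407 and 2.94 FPKM (median 0.719) in July MII libraries. The highest value in every group was that of its shallowest library, and the 95% interval of the log2 difference was -1.05 to 0.81 in May and -0.77 to 0.99 in July. PDHB, the E1 beta subunit, had group means of 0.604 to 1.41 FPKM, the highest resting on the shallow May MII replicate 6 at 6.33 FPKM. DLAT, the acetyltransferase core, was 0.509 ± 0.172 and 0.905 ± 0.303 FPKM in May GV and MII libraries and 0.639 ± 0.425 and 1.06 ± 0.563 FPKM in July, with log2 differences of 0.33 ± 0.15 (SE) and 0.32 ± 0.21 (SE) (adjusted p = 0.118 and 0.265). DLD, the dihydrolipoamide dehydrogenase shared with the oxoglutarate complex, differed by 0.30 ± 0.19 (SE) and 0.38 ± 0.20 (SE) (adjusted p = 0.258 and 0.175). PDHX, the E3 binding protein, differed by 0.16 ± 0.15 (SE) and 0.20 ± 0.09 (SE) (adjusted p = 0.429 and 0.130), and passed in May without the shallow libraries, at 0.22 ± 0.08 (SE) (adjusted p = 0.0457).

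None of the 4 pyruvate dehydrogenase kinases, which inactivate the complex by phosphorylation, passed the adjusted limma test in May or in July with all libraries. Of all genes tested, 24.2% and 30.7% passed it. At an unadjusted limma p under 0.05 there were 2 kinases in May and 3 in July, beside 38.8% and 42.1% of all genes. PDK1 was between 0.163 and 3.04 FPKM (median 0.385) in May GV, between 0.55 and 1.77 FPKM (median 1.08) in May MII, between 0.252 and 1.54 FPKM (median 0.428) in July GV and between 0.712 and 2.99 FPKM (median 1.27) in July MII libraries. The shallow GV libraries were the highest of their groups, May replicate 6 at 3.04 FPKM and July replicate 2 at 1.54 FPKM, and the July stages overlapped through the latter alone. The log2 difference of 0.37 ± 0.28 (SE) in May (limma adjusted p = 0.344) and 0.71 ± 0.26 (SE) in July (adjusted p = 0.0527) did not pass, whereas without the shallow libraries PDK1 was higher in MII in both months, by 0.55 ± 0.14 (SE) (adjusted p = 0.0106) and 0.85 ± 0.23 (SE) (adjusted p = 0.0130). PDK2 was 0.771 ± 0.674 and 0.174 ± 0.141 FPKM in May GV and MII libraries and 0.564 ± 0.496 and 0.158 ± 0.174 FPKM in July, with log2 differences of -0.53 ± 0.20 (SE) and -0.40 ± 0.16 (SE) (adjusted p = 0.0698 and 0.0812). Without the shallow libraries PDK2 was lower in MII in May (-0.42 ± 0.13 (SE), adjusted p = 0.0242) and PDK3 higher (0.33 ± 0.11 (SE), adjusted p = 0.0418). PDK4, a kinase known for its induction by fasting, was 0.0134 ± 0.00531 and 0.0117 ± 0.00363 FPKM in May and July GV libraries, 8 of these 12 being at the lowest value of the table. Its highest value was 0.777 FPKM in the shallow May MII replicate 6.

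In the part of the cycle from citrate to oxoglutarate, IDH3G fell in both months, IDH3B fell and IDH3A rose in July, and CS had the highest level. CS, citrate synthase, was between 2.45 and 10.9 FPKM (median 3.53) in May GV, between 4.67 and 37.9 FPKM (median 8.47) in May MII, between 3.31 and 21.7 FPKM (median 5.44) in July GV and between 4.42 and 26.5 FPKM (median 9.93) in July MII libraries. By group mean it was the third most abundant of the 48 transcripts in both MII groups, after GAPDH and LDHA. Its stages overlapped, and the log2 difference of 1.19 ± 0.45 (SE) in May (limma adjusted p = 0.0681) and 0.63 ± 0.50 (SE) in July (adjusted p = 0.363) did not pass, although in May it did without the shallow libraries (1.08 ± 0.28 (SE), adjusted p = 0.0113). ACO1, the cytosolic aconitase and iron regulatory protein, differed by -0.11 ± 0.10 (SE) and -0.17 ± 0.08 (SE) and did not pass (adjusted p = 0.423 and 0.116).

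The NAD-dependent isocitrate dehydrogenase is built of the catalytic subunit IDH3A with IDH3B and IDH3G, and these subunits are described together. IDH3G (UMD3.1 chrX:39916806-39925321, minus strand), the regulatory gamma subunit, was between 0.611 and 3.64 FPKM (median 1.94) in May GV and between 0.0418 and 0.193 FPKM (median 0.123) in May MII libraries. July values were between 0.759 and 3.12 FPKM (median 1.74) at GV and between 0.01 and 0.147 FPKM (median 0.0651) at MII, with 1 MII library at the lowest value of the table. The stages were separate in both months, with a log2 fold change of -1.33 ± 0.25 (SE) in May (limma adjusted p = 0.00242) and -1.3 ± 0.18 (SE) in July (adjusted p = 0.000223). The GV mean of IDH3G was 17.1 times the MII mean in May and 25.3 times in July.

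IDH3B, the beta subunit, was 0.921 ± 0.594 and 0.237 ± 0.198 FPKM in May GV and MII libraries, with the shallow GV replicate 6 at the lowest value of the table, and 1.53 ± 0.377 and 0.377 ± 0.123 FPKM in July. It fell in July without overlap (-0.87 ± 0.14 (SE), limma adjusted p = 0.000487) and missed the threshold in May (-0.59 ± 0.21 (SE), adjusted p = 0.0606), where it passed without the shallow libraries (-0.82 ± 0.15 (SE), adjusted p = 0.00221). IDH3B overlaps NOP56, listed on the opposite strand. IDH3A rose in July (0.57 ± 0.20 (SE), adjusted p = 0.0471), from 0.558 ± 0.280 FPKM in GV to 1.35 ± 0.624 FPKM in MII libraries. This call was lost without any 1 of 9 libraries (each July GV replicate but 2, and MII replicates 2, 4, 5 and 6, adjusted p up to 0.0967), with no filter (0.0505) and with all 4 groups in one fit (0.199). In May IDH3A differed by 0.23 ± 0.39 (SE) (adjusted p = 0.675), with May GV replicate 6 at 6.63 FPKM against 0.212 to 0.770 FPKM in the other GV libraries. Without the shallow libraries it was higher in MII in both months (0.58 ± 0.14 (SE), adjusted p = 0.0105 in May, and 0.65 ± 0.19 (SE), adjusted p = 0.0213 in July). The NADP-dependent enzymes were IDH1, cytosolic, with group means of 0.471 to 0.752 FPKM, and IDH2, mitochondrial, with 0.0185 to 0.0592 FPKM, and neither passed. In May without the shallow libraries both did, IDH1 higher in MII by 0.33 ± 0.11 (SE) (adjusted p = 0.0404) and IDH2 at -0.07 ± 0.02 (SE) (adjusted p = 0.0194).

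Between oxoglutarate and oxaloacetate, OGDH, SUCLG1, MDH1 and MDH2 fell and FH rose in each month, and DLST, SUCLA2 and SUCLG2 did not pass in either with all libraries. MDH2 (UMD3.1 chr25:34766932-34779638, plus strand), the mitochondrial malate dehydrogenase that closes the cycle, was between 5.10 and 12.9 FPKM (median 8.59) in May GV and between 0.946 and 2.79 FPKM (median 1.17) in May MII libraries. Its July values were between 5.74 and 16.6 FPKM (median 7.80) at GV and between 0.404 and 1.96 FPKM (median 1.01) at MII. Every MII library was below every GV library of its month, with a log2 fold change of -2.02 ± 0.23 (SE) in May (limma adjusted p = 0.000127) and -2.19 ± 0.26 (SE) in July (adjusted p = 7.41e-05). MDH2 overlaps STYXL1, listed on the opposite strand. MDH1 (UMD3.1 chr11:61970061-61994502, plus strand), the cytosolic enzyme of the malate-aspartate shuttle, was between 0.219 and 1.91 FPKM (median 1.24) in May GV and between 0.0893 and 0.261 FPKM (median 0.196) in May MII libraries, and between 1.3 and 2.06 FPKM (median 1.83) and between 0.0819 and 0.374 FPKM (median 0.233) in July. The only May GV library within the MII range was the shallow replicate 6, and July groups were separate. MDH1 changed by -0.84 ± 0.19 (SE) in May (adjusted p = 0.00674) and -1.15 ± 0.12 (SE) in July (adjusted p = 2.92e-05).

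FH (UMD3.1 chr16:36059726-36086824, plus strand), fumarase, which hydrates fumarate to malate, was between 0.654 and 1.58 FPKM (median 0.887) in May GV and between 2.22 and 3.52 FPKM (median 3.05) in May MII libraries. It was between 1.27 and 2.62 FPKM (median 1.39) in July GV and between 1.82 and 5.63 FPKM (median 3.38) in July MII libraries. The May groups did not overlap, and in July they met through the shallow GV replicate 2 (2.62 FPKM). FH rose by 1.04 ± 0.16 (SE) in May (limma adjusted p = 0.000766) and 0.74 ± 0.20 (SE) in July (adjusted p = 0.0154), and without the shallow libraries by 1.10 ± 0.12 (SE) and 0.85 ± 0.19 (SE) (adjusted p = 0.000162 and 0.00489).

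Succinyl-CoA ligase joins the alpha subunit SUCLG1 to either of 2 beta subunits, SUCLA2 for ADP and SUCLG2 for GDP. SUCLG1 (UMD3.1 chr11:50400445-50453413, plus strand) was between 0.343 and 0.944 FPKM (median 0.569) in May GV and between 0.0466 and 0.0923 FPKM (median 0.0642) in May MII libraries, and between 0.382 and 0.594 FPKM (median 0.468) and between 0.0376 and 0.0996 FPKM (median 0.0490) in July. Stages were far apart in both months, and SUCLG1 changed by -0.56 ± 0.08 (SE) in May (limma adjusted p = 0.000670) and -0.48 ± 0.05 (SE) in July (adjusted p = 1.83e-05). In counting steps SUCLG1 gave 3879 over the GV libraries and 250 over the MII libraries. These sums are not scaled for depth, and July GV replicate 5, the deepest library, gave 1404 of the 3879. SUCLA2 was 0.209 ± 0.106 and 0.425 ± 0.187 FPKM in May GV and MII libraries and 0.240 ± 0.137 and 0.520 ± 0.256 FPKM in July, with log2 differences of 0.23 ± 0.10 (SE) and 0.28 ± 0.11 (SE) (adjusted p = 0.0960 and 0.0756). SUCLG2 differed by 0.24 ± 0.28 (SE) and 0.16 ± 0.30 (SE) (adjusted p = 0.530 and 0.720). Without the shallow libraries SUCLG2 was higher in MII in May, by 0.25 ± 0.08 (SE) (adjusted p = 0.0337), and SUCLA2 in July, by 0.34 ± 0.11 (SE) (adjusted p = 0.0250).

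OGDH, the E1 subunit of the oxoglutarate dehydrogenase complex, was low, at 0.0868 ± 0.0301 and 0.0339 ± 0.0175 FPKM in May GV and MII libraries and 0.118 ± 0.0633 and 0.0251 ± 0.0137 FPKM in July. It fell by 0.07 in May (limma adjusted p = 0.0471) and by 0.12 in July (adjusted p = 0.0109) on the log2(FPKM + 1) scale. OGDH was over 0.1 FPKM in GV libraries only, and so entered the test through the higher stage. The May call was lost without any 1 of 8 libraries (GV replicates 2, 4 and 5, and MII replicates 1 to 5, adjusted p up to 0.101), with quantile normalization (0.185) and with all 4 groups in one fit (0.0630). DLST, the E2 subunit of the same complex, had group means of 0.0783 to 0.119 FPKM and 95% intervals of the log2 difference of -0.06 to 0.16 in May and -0.11 to 0.14 in July.

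**Figure D3:**
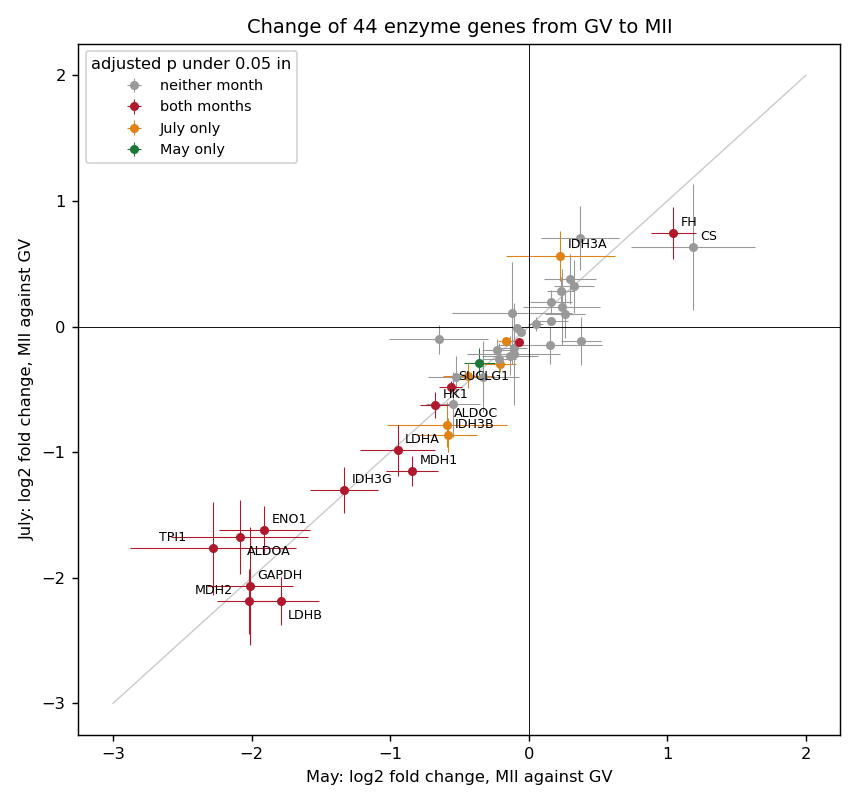
Log2 fold change from GV to MII of 44 of the 46 tested enzyme genes in May (x axis) and July (y axis), on the log2(FPKM + 1) scale, with bars of 1 SE, colours for the months in which the adjusted p was under 0.05, and a grey line of equal change. MDH2, LDHB, GAPDH, TPI1, ALDOA and ENO1 lie lowest on both axes, and FH lies in the upper right at 1.04 in May and 0.74 in July.

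Ratios between partner transcripts within a library do not depend on the scaling of that library. Of 19 ratios computed, 4 were lower and 2 higher in MII than in GV without overlap in both months, and 5 of these are given as a description with no test. No share over other gene pairs was computed, so these counts have no background to be read against. SUCLG1, MDH2 and FH had passed in both months, whereas SUCLA2, SUCLG2, PDK1, PDK2 and PDK3 passed in neither with all libraries. SUCLG1 to SUCLA2 was 1.29 to 5.97 (median 3.13) in May GV and 0.0630 to 0.280 (median 0.188) in May MII libraries, and 1.16 to 3.27 (median 2.19) and 0.0541 to 0.148 (median 0.127) in July. The alpha subunit transcript thus exceeded that of its ADP-forming partner in every GV library and was below it in every MII library. SUCLG1 to SUCLG2 had medians of 2.63 and 2.51 in May and July GV and 0.173 and 0.127 in May and July MII libraries.

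MDH2 to FH, whose enzymes follow each other in the cycle, was 5.77 to 14.1 (median 9.32) in May GV and 0.269 to 1.02 (median 0.409) in May MII libraries, and 4.02 to 6.35 (median 5.84) and 0.0718 to 0.591 (median 0.464) in July. MDH2 was the more abundant of this pair in all GV libraries, and FH in all MII libraries but 1 in May. Among the kinases, PDK1 to PDK2 was 0.156 to 3.54 (median 1.01) in May GV and 3.96 to 14.4 (median 7.78) in May MII libraries, and 0.562 to 1.40 (median 1.08) and 5.54 to 24.9 (median 14.9) in July. PDK3 to PDK2 was higher in MII in the same way, with medians of 1.02 and 2.73 in GV and 7.07 and 9.25 in MII libraries of May and July. MDH1 to MDH2, the cytosolic and mitochondrial malate dehydrogenases that both fell, overlapped between stages in both months, with medians of 0.120 and 0.145 in May GV and MII libraries.

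**Figure D4:**
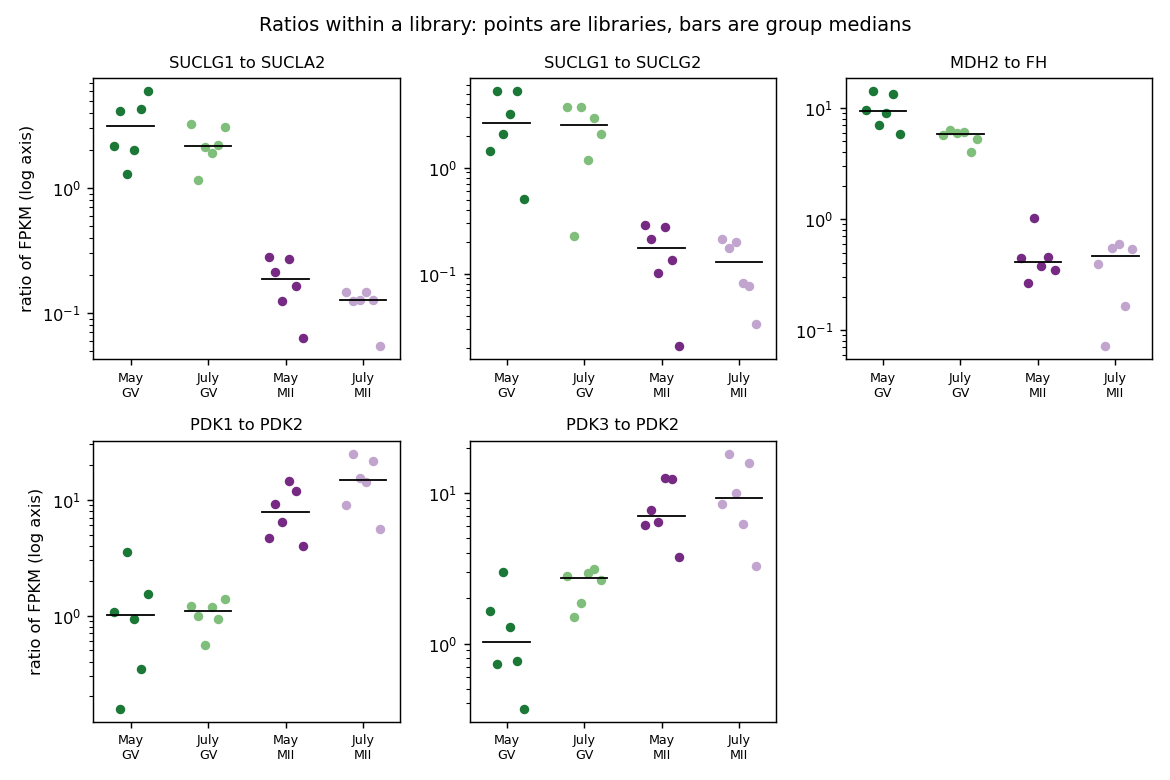
Ratio of the FPKM values of 5 transcript pairs within each library (y axis, log axis), 6 libraries in each of the 4 groups on the x axis, with a bar at the group median. The ratios of SUCLG1 to SUCLA2, SUCLG1 to SUCLG2 and MDH2 to FH are lower in all MII libraries than in all GV libraries of the same month, and those of PDK1 and PDK3 to PDK2 are higher.

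Between May and July, 0 of 46 members passed the adjusted limma test in GV oocytes (0% of all genes tested) and 0 of 46 in MII oocytes (0%). At an unadjusted p under 0.05, GV oocytes gave 2 members and 148 of 9526 genes (1.55%), and MII oocytes gave 0 members and 201 genes (2.11%). By the rule of the study's methods (unadjusted p under 0.05 and over 2-fold), 0 members passed in either stage, beside 3 genes in GV (0.0315%, with 0.0105% higher and 0.021% lower) and 4 in MII oocytes (0.042%). The fold was again taken by limma on the log2(FPKM + 1) scale, which understates changes near or under 1 FPKM. With the Partek program the study reported far more genes in each stage, so the counts here do not repeat its own. The 2 members under an unadjusted limma p of 0.05 in GV oocytes were PDK3 and FH. PDK3, a pyruvate dehydrogenase kinase, was between 0.471 and 0.766 FPKM (median 0.588) in May GV, between 0.826 and 2.33 FPKM (median 0.891) in July GV, between 0.732 and 1.69 FPKM (median 1.02) in May MII and between 0.461 and 1.61 FPKM (median 0.934) in July MII libraries. All July GV libraries lay above all May GV libraries, which held for 1 of 46 members and 0.136% of all genes tested, and the MII groups overlapped.

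The log2 difference of PDK3 between July and May GV oocytes was 0.41 ± 0.17 (SE) (unadjusted limma p = 0.0329, adjusted p = 1, exact permutation p = 0.00216, the smallest that the 924 assignments of 6 and 6 libraries can give), and without the shallow libraries it was 0.30 ± 0.11 (SE) (unadjusted p = 0.0189). FH differed by 0.39 ± 0.17 (SE) in the same comparison (unadjusted p = 0.0387, exact permutation p = 0.0130), with overlap, since the shallow May GV replicate 6 lay within the July range, and by 0.38 ± 0.10 (SE) without the shallow libraries (limma, unadjusted p = 0.00308, adjusted p = 1). LDHB was also higher in July GV oocytes without the shallow libraries, by 0.41 ± 0.17 (SE) (limma, unadjusted p = 0.0364), and did not pass after adjustment. In MII oocytes the smallest unadjusted p by limma were those of GAPDH, with a log2 difference of -0.72 ± 0.40 (SE) (p = 0.0949, exact permutation p = 0.119), and MPC1, with -0.31 ± 0.18 (SE) (p = 0.110, exact permutation p = 0.117). Both overlapped between months. Without the shallow libraries the unadjusted limma p was 0.0321 for MPC1 (-0.41 ± 0.17 (SE)) and 0.0300 for IDH3B (0.23 ± 0.09 (SE)), and neither passed after adjustment (adjusted p = 0.999 for each).

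Season differences of the members ranged from -0.81 (TPI1) to 0.55 (CS) in GV and from -0.72 (GAPDH) to 0.25 (PDK1) in MII oocytes on the log2 scale. The medians were 0.01 in GV and -0.01 in MII oocytes, as over all genes tested (0.01 and -0.01). For the members with high levels the intervals were wide: the 95% interval of July against May in GV oocytes was -1.52 to 0.19 for GAPDH, -1.90 to 0.28 for TPI1, -0.38 to 1.47 for CS and -0.28 to 0.83 for LDHA. In simulated data of this size, 38 of 200 genes changed by 1 and 158 of 200 changed by 2 on the log2 scale were recovered in the GV season comparison.

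Whether maturation differed between months was tested directly over all 4 groups, and 0 of 46 members and 0 of 9526 genes (0%) passed the adjusted limma test. At an unadjusted p under 0.05, 1 member and 171 genes (1.8%) did. The member was PDK3, whose change from GV to MII was 0.38 ± 0.15 (SE) in May and -0.11 ± 0.19 (SE) in July, a difference of -0.49 ± 0.23 (SE) (unadjusted p = 0.0451), and this p was 0.121 without the shallow libraries. PFKL followed, with 0.07 ± 0.04 (SE) (limma adjusted p = 1), and 0.04 in place of 0.07 without May GV replicate 3. The members called in 1 month only are thus not shown to differ between months. This comparison uses the same libraries as the season and maturation comparisons.

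Other genes of glucose metabolism were taken from a list of 65, covering sugar and lactate carriers, regulators of glycolysis, the pentose phosphate pathway, pyruvate dehydrogenase phosphatases and lipoylation, succinate dehydrogenase, and metabolite shuttles. Of 50 tested, 1 rose and 12 fell in May, where 9.45% of all genes tested rose and 14.7% fell, and 2 rose and 16 fell in July, against 7.67% and 23.1%. Their median log2 fold change was -0.04 in May and -0.05 in July, close to that of all genes (-0.03 and -0.02), and 0 passed in the season comparisons or in the difference between months. The pentose phosphate enzymes TALDO1, transaldolase, and PGLS, 6-phosphogluconolactonase, fell in both months, TALDO1 by 1.63 and 1.69 and PGLS by 1.51 and 1.77 on the log2 scale in May and July (limma adjusted p up to 0.00531). SLC2A8, a glucose transporter, fell by 1.43 and 1.54, and TIGAR, a fructose bisphosphatase that restrains glycolysis, by 0.80 and 0.78. PGM1, a phosphoglucomutase that links glycogen to glycolysis, fell by 0.38 and 0.55.

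Succinate dehydrogenase, the cycle step between succinyl-CoA ligase and fumarase, had 3 of 8 listed genes fall in each month, where 14.7% of all genes tested fell in May and 23.1% in July, and 0 rise. SDHB, its iron-sulfur subunit, went from 1.36 to 0.332 FPKM in May (-0.80 ± 0.17 (SE), limma adjusted p = 0.00475) and from 0.955 to 0.231 FPKM in July (-0.67 ± 0.12 (SE), adjusted p = 0.00106). The assembly factors SDHAF1 and SDHAF3 fell by 2.21 and 1.29 in May and by 1.77 and 1.01 in July. The gene that rose in May was SLC16A1, a carrier of lactate and pyruvate (0.81 ± 0.21 (SE), adjusted p = 0.0150), and the pair that rose in July was the pentose phosphate isomerase RPIA (0.88 ± 0.21 (SE), adjusted p = 0.00679) and the inositol phosphatase MINPP1 (0.04 ± 0.01 (SE), adjusted p = 0.0293). These 3 were chosen for naming after their values were seen.

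Depth moved with the level of some members within groups. The shallowest library of each group was May GV replicate 6, July GV replicate 2, May MII replicate 6 and July MII replicate 6, and it had the highest value in all 4 groups for 9 of 46 members (14.2% of all genes tested): ACO1, ALDOA, CS, IDH3A, OGDH, PDHA1, PDK2, PKLR and SUCLG2. SUCLG2 in these libraries was 12.5, 19.2, 5.90 and 3.57 times the median of the other libraries of the group, in the order given. PDHA1 was 10.0, 12.5, 6.09 and 4.55 times as high, and CS 3.36, 5.48, 4.83 and 3.38 times. LDHA in contrast was 0.814, 0.747, 0.999 and 0.745 times the median of the others, and MPC1 was lowest in the shallowest library in 3 of 4 groups. The part of depth in these levels was not tested beyond leaving the libraries out.

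**Figure D5:**
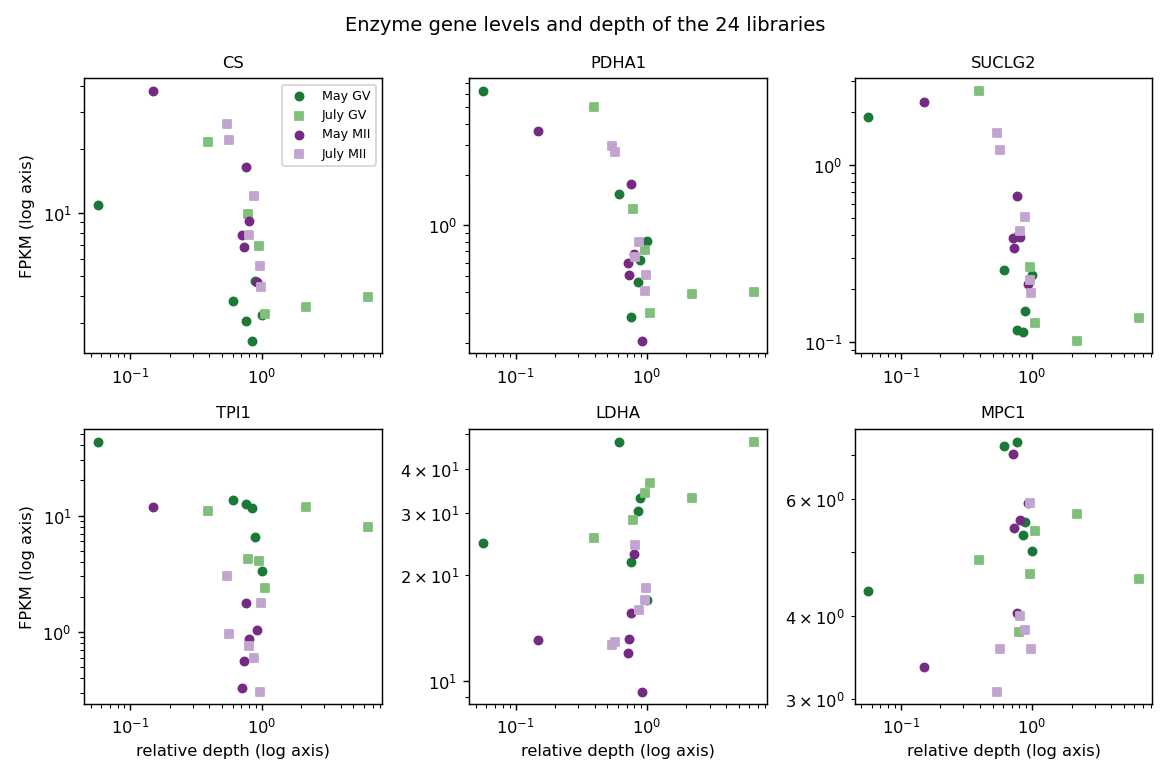
Level of 6 enzyme genes (y axis, FPKM, log axis) against the relative depth of the 24 libraries (x axis, log axis, 1 for May GV replicate 1), with circles for May and squares for July, green for GV and purple for MII oocytes. CS, PDHA1 and SUCLG2 are highest in the libraries of lowest depth within each group, and LDHA and MPC1 are not.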

How the data were processed

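RNA of 24 pools of 4 bovine oocytes was captured by its poly(A) tail and amplified with a Smart-seq kit by the authors, and sequenced after Nextera XT library preparation. Per the submitters' processing notes, STAR 2.5.3a, FastQC, Partek and the UMD3.1 build were used. The authors deposited FPKM values, which in every library sum to the same total and are never under 0.01, and the labels do not name the step that made them so. The labels speak of individual cells and the methods of pools, and pools were taken here.

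The 9526 genes over 0.1 FPKM in at least 1 library were tested in R 4.3.3 with limma 3.58.1 (trend) on log2(FPKM + 1), two-sided, with only the 2 groups compared in the fit, and with all 4 groups for the difference between months. A call is an adjusted p under 0.05. Single members also had an exact two-sided permutation test over 924 assignments. The methods give 1 animal per pool and the labels name no cow, so p-values measure the spread between these pools. Animals that may recur between groups could not be modelled.

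Relative depth was estimated in Python 3.11.15 (numpy 2.4.6, pandas 2.3.3) from values that, less 0.01, are whole multiples of 1 step. Of 9733 values held out, 99.8% came within 0.1 of a whole number, where chance gives 20%. A library under 0.5 of the median relative depth is called shallow. The estimate was tested on simulated data and recovered 24 of 24 libraries (4000 genes). The limma step was tested on simulated data of 9526 genes, and for a simulated log2 change of 2 recovered 169 of 200 genes in May and 169 in July, 165 in the MII season comparison and 136 in the difference between months.

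The members and the lists were chosen with earlier results of these data known. Values of every library, or their range and median, were given for up to 12 members past the threshold in both maturation comparisons, for the 2 with the smallest p in each season comparison and in the difference between months, and for the most abundant of each role. Of the other pathway genes, up to 8 past the threshold in both months were named. Single results of 2 members are not reported here, and counts include them. Alternatives were a pseudocount of 0.1, the table with no filter or with genes of mean 1 FPKM or more, scaling by median ratios or by quantiles, the replicate number as a block, robust moderation, all 4 groups in one fit, the call rule of the study's methods, and leaving out each library or the shallow libraries. Leaving out May GV replicate 3 as well was an alternative chosen after seeing the data.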

Additional observations from a re-analysis of the deposited data

Results flagged for a closer look

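Among the 20 members given by library, 22 of 80 groups of 6 libraries held a value set apart from the rest, by Dixon's test on FPKM at its 95% critical value. Chance would set apart about 1 in 20 groups if values were normally distributed, which was not checked for these untransformed FPKM. The same libraries recur across genes and no share over all genes was computed, so the count has no background to be read against. The shallow May GV replicate 6 held 8 of these, all high: ALDOA at 25 FPKM (next 9.5), CS at 10.9 FPKM (next 4.72), FH at 1.58 FPKM (next 0.934), GPI at 3.35 FPKM (next 1.98), LDHB at 11 FPKM (next 6.47), PDHA1 at 6.27 FPKM (next 1.53), PDK1 at 3.04 FPKM (next 0.655) and TPI1 at 43.2 FPKM (next 13.6). The shallow July GV replicate 2 held 6, all high: CS at 21.7 FPKM (next 9.83), FH at 2.62 FPKM (next 1.43), MDH2 at 16.6 FPKM (next 8.54), PDHA1 at 5.03 FPKM (next 1.25), PDK1 at 1.54 FPKM (next 0.536) and PDK3 at 2.33 FPKM (next 1.33). The shallow May MII replicate 6 held 4, all high: ALDOA at 6.03 FPKM (next 0.850), CS at 37.9 FPKM (next 16.5), ENO1 at 1.54 FPKM (next 0.643) and TPI1 at 11.7 FPKM (next 1.78). July MII replicate 1, which is not shallow, held 2, all high: GAPDH at 42.2 FPKM (next 15.4) and MPC1 at 5.93 FPKM (next 4.00). May MII replicate 3 held 1, high: MDH2 at 2.79 FPKM (next 1.40). July MII replicate 4 held 1, high: PFKL at 0.0162 FPKM (next 0.01), where the other 5 libraries were at the lowest value of the table, so that any value over it is set apart by construction. Without PFKL there were 21. All 22 were high values, and 18 of them came from the 3 shallow libraries. The part of depth in them was not tested, and the calls without those libraries are given above.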

How the results depend on the processing

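The season comparisons and the difference between months gave 0 members under each alternative run, leaving out each library included (0 to 0). In May, 15 members passed, against 30 without the shallow libraries, 33 when May GV replicate 3 was left out too, 9 by the rule of the study's methods, and 12 to 26 when each library was left out in turn, the highest without May GV replicate 6. The May counts over all 9526 genes were 2304, then 3991, 4564, 1126 and 1690 to 3609, in the same order. In July, 20 passed, against 11 with only genes of mean 1 FPKM or more, 8 by the rule of the study's methods, and 18 to 22 with each library left out in turn. The July counts over all genes were 2929 of 9526, then 1672 of 3665, 1092 of 9526 and 2349 to 3742 of 9526. The filter leaves fewer members to test, and the rule of the methods adds a fold threshold on the log2(FPKM + 1) scale and drops the adjustment. Median-of-ratios scaling gave 20 in May (1 higher, 19 lower) and 29 in July (5 higher, 24 lower), and a pseudocount of 0.1 gave 18 and 23, with the median of all genes at -0.12 and -0.13 and that of the members at -0.55 and -0.61. Of all 9526 genes, this scaling called 2684 in May and 3569 in July, and this pseudocount 2652 and 3202.

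The values of single members were repeated for those that passed or had the smallest p, so that members that passed only without the shallow libraries are not among them. Outside the rule of the methods, 860 of these repeats stayed on their side of the threshold with the same direction, 44 lost the call, and 0 reversed. By that rule, 22 stayed and 19 lost the call. The 44 concern LDHA, OGDH and PCK2 in May and IDH3A, ALDOC, LDHA and PC in July. The replicate numbers were not taken to pair the libraries, since it was not stated that they name the same cow. The correlation of same-numbered libraries was over 0.1 in 1 of 6 pairs for GV season, 4 for MII season (up to 0.764), 3 for May and 4 for July. Libraries correlated best with their own number in 1, 4, 2 and 1 of 6 pairs. The shallowest library was replicate 6 in every group but July GV, which concerns the pair of that number only. Whether the replicate numbers pair the libraries was not tested further, and these values were not used to decide on it. With the replicate number as a block, 18 members passed in May (2858 of 9526 genes), 21 in July (3000 genes) and 0 in the other comparisons, and the unadjusted limma p of FH between months in GV oocytes was 0.0783 in place of 0.0387. A step in FPKM cannot be turned into a number of reads here, so no counting error is given, and members listed at 0.01 in a shallow library may have been missed at its depth.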
